A study of Homo sapiens with 15 samples.

Results

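Sphingolipids are broken down in the lysosome by a chain of soluble acid hydrolases that work together with small lipid-binding activator proteins. The expression of 8 genes of this chain was followed in the human pancreatic cancer line MIA PaCa-2 after treatment with lysosomotropic agents. The genes were chosen by symbol from the 60107 gene rows of each library: the activators PSAP and GM2A and the hydrolases ASAH1, SMPD1, HEXA, GLA, GALC and ARSA. Each symbol matched 1 row, and all 8 genes passed the filter on low counts. RNA was sequenced from 15 libraries in 5 groups of 3. Cells received vehicle (Ctrl), Lys05, BAQ12, BAQ13 or BAQ12O for 24 h, with each agent at 5 µM. Lys05 is a dimeric chloroquine derivative that blocks autophagy. BAQ12 and BAQ13 are compounds of the study that were given as self-assembled nanoparticles (NPs), and the labels say nothing of BAQ12O beyond its name.

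Membrane sphingolipids reach the lysosome by endocytosis and autophagy, where their sugars are removed in order until ceramide is left. Ceramide is then cut to sphingosine and a fatty acid. Inherited loss of these enzymes or of their activators causes lysosomal storage diseases, among them Tay-Sachs, Fabry, Krabbe, Niemann-Pick and Farber disease and metachromatic leukodystrophy. Cationic amphiphilic drugs that gather in lysosomes are known to detach several of these enzymes from the inner lysosomal membranes, which leads to their degradation as proteins. The values here are RNA levels and do not measure enzyme amount or activity.

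Each value is a gene's read count divided by the size factor of its library and is called a normalised count. The libraries held 1586566 to 2500551 reads on genes, and a count of 3 reads corresponds to normalised counts of 2.49 to 4.14. Normalised counts give a share of the library, and in RNA from whole cultures a change in every cell cannot be told apart from a change in some of the cells. KRT8, KRT18, KRT19, SOX9 and VIM were present in every library, whereas EPCAM had 0 reads in 14 of the 15 libraries and CDH1 had 17 reads over all of them. Both of these epithelial adhesion genes were thus at or near 0 in cells labelled epithelial. The duct marker CFTR had 0 reads in all 15 libraries, whereas the duct marker MUC1 was present in every library (8.26 to 41.1). The acinar markers PRSS1, CPA1 and AMY2A had 0 reads as well, and the mesenchymal CDH2 had 1 read over all libraries. Of markers of other cell types, DCN, CD3E and PECAM1 had 0 reads. The fibroblast collagen COL1A2 (normalised counts of 148 to 252) and the endothelial cadherin CDH5 (23.9 to 75.3) were present in every library. Between these, the fibroblast COL1A1 and the leukocyte PTPRC had 12 and 10 reads over all libraries. The leukocyte CD14 had 53 reads and was above 3 reads in 7 libraries. A pair of libraries stood apart from their groups. The chi-square per degree of freedom of the reads was 13.6 and 11.4 between BAQ12 replicate 3 and its group mates and 3.41 and 6.23 for BAQ13 replicate 1, against 1.06 to 1.77 for all other pairs of replicates. The deviations of these 2 libraries from their groups correlated at 0.57 across the genes tested, and values without them are given beside the results they touched most. Nothing in the labels says that the replicates came from separate cultures, so p-values measure the spread between these libraries only.

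BAQ13 was the agent with which most members changed. GM2A, ASAH1 and PSAP were higher than with vehicle at an adjusted p-value under 0.05 (limma, Benjamini-Hochberg over 10495 genes), at log2 fold changes of 0.85, 0.73 and 0.26. The other 5 members did not pass this threshold. These 3 of 8 members stand against 5.77% of all genes tested that passed in either direction and 3.58% that were higher. In the comparisons of Lys05, BAQ12 and BAQ12O with vehicle, 0 of 8 members passed with limma, edgeR or DESeq2. In those comparisons 0.238%, 0.981% and 1.48% of all genes passed. At an unadjusted p-value under 0.05 with limma there were 0, 1 and 2 members, against 4.98%, 11.8% and 12.8% of all genes, so that 1 of 8 lies close to its share. All 4 comparisons share the same vehicle libraries.

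**Figure D1:**
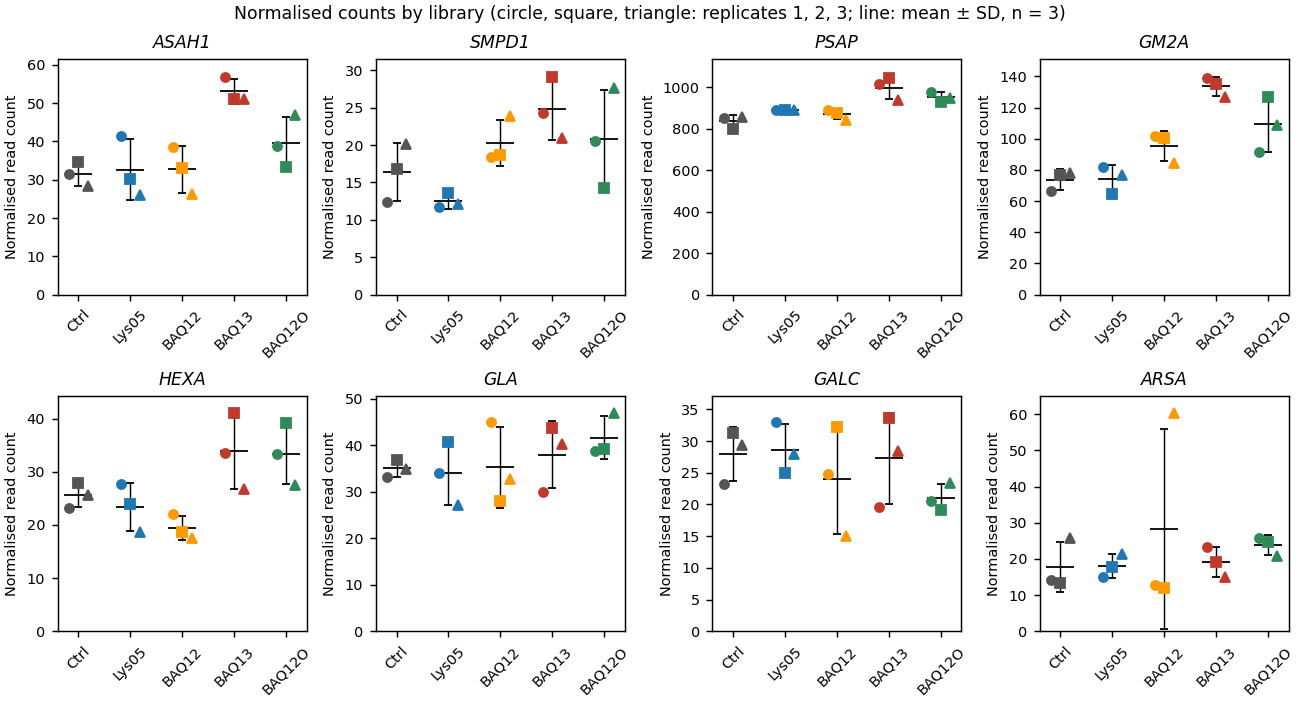
Normalised read counts (linear axes from 0) of the 8 members in each of the 15 libraries. Circles, squares and triangles are replicates 1, 2 and 3, and the line with its bar is the mean ± SD of 3 libraries. The BAQ13 libraries of GM2A (127 to 139) and ASAH1 (51.0 to 56.9) lie above every vehicle library, and ARSA stands at 60.3 in BAQ12 replicate 3.

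GM2A (ENSG00000196743, chromosome 5, 151212150 to 151270440, plus strand, GRCh38) encodes the GM2 activator, which lifts ganglioside GM2 out of the membrane so that hexosaminidase A can cleave it. Its normalised counts were 66.4, 77.05 and 78.0 with vehicle, 82.0, 64.6 and 76.5 with Lys05, 102, 100.3 and 84.2 with BAQ12, 139, 135 and 127 with BAQ13, and 91.6, 127 and 109 with BAQ12O. The vehicle and Lys05 libraries overlapped, whereas every library of the other 3 groups lay above all vehicle libraries. The mean rose from 73.8 ± 6.44 (SD, n = 3) with vehicle to 133 ± 6.36 (SD, n = 3) with BAQ13, a ratio of 1.81 and a log2 fold change of 0.85 (standard error, SE, 0.14, limma adjusted p = 0.00088). Leaving out any 1 of the 15 libraries kept the log2 fold change between 0.78 and 0.89, with an adjusted p of at most 0.00855. GM2A was also the only member whose 5 groups differed in limma's F test (adjusted p = 0.0030), a test that 3.03% of all genes passed. With BAQ12O the mean was 109 ± 17.6 (SD, n = 3) and the log2 fold change 0.55 (SE 0.14, limma adjusted p = 0.064). Without BAQ12 replicate 3, which then no longer enters the shared estimate of the spread, that adjusted p was 0.011. With BAQ12 the log2 fold change was 0.36 (95% confidence interval 0.07 to 0.66, adjusted p = 0.33 by limma), and with Lys05 it was 0.01 (-0.29 to 0.30). The value with BAQ12 was 0.45 without BAQ12 replicate 3 (adjusted p = 0.18 by limma). In order of the group means, vehicle and Lys05 were followed by BAQ12, BAQ12O and BAQ13, and no neighbours in this order differed at the adjusted threshold.

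RefSeq promoter windows were searched on both strands over their first 250 bases. The motifs were CACGTG, a palindrome bound by TFEB and related factors that drive lysosomal genes, GGGCGG (a GC box) and CCAAT. These windows need not lie before the gene start of GENCODE 29. Exons of the gene covered 43 bases of the SMPD1 window, 87 of the GLA window and 139 and 135 of 2 GALC windows. The table of RefSeq promoters held GM2A, SMPD1, GLA and GALC, and ASAH1, PSAP, HEXA and ARSA were missing from it. No CACGTG stood in any of the windows of these 4 genes, where 6.34% of all 35116 windows of this length hold it. The GM2A window (chr5:151252935-151253184, plus strand, GRCh38.p14) held 3 CCAAT and 2 GGGCGG matches, motifs that 32.0% and 42.6% of all windows hold. By its GENCODE 29 coordinates (151212150 to 151270440) the gene begins well before this window, and all 250 bases lie in annotated exons of GM2A. The stretch of 30 bases with the most motif letters, chr5:151253013-151253042, is shown because GM2A is the member with the clearest change, with CCAAT and GGGCGG in capitals.
GM2A: aggctCCAATgaaaagagcgaggGGGCGGa
A match is a description of the letters, and factor binding was not measured.

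PSAP (ENSG00000197746, chromosome 10, 71816298 to 71851375, minus strand, GRCh38) encodes prosaposin, the precursor of saposins A to D, which present several sphingolipids to their hydrolases. Normalised counts were 853, 798 and 856 with vehicle, 893, 894 and 892 with Lys05, 891, 877 and 843 with BAQ12, 1014, 1044 and 940.3 with BAQ13, and 979, 931 and 951 with BAQ12O. The BAQ13 and BAQ12O libraries all lay above the vehicle and BAQ12 libraries, and the Lys05 libraries lay between vehicle and BAQ12O without overlap. The mean rose from 836 ± 32.7 (SD, n = 3) with vehicle to 999 ± 53.2 (SD, n = 3) with BAQ13, a ratio of 1.20 and a log2 fold change of 0.26 (SE 0.07, limma adjusted p = 0.030). This call was lost with the replicate number as a block (limma adjusted p = 0.051) and without vehicle replicate 1, 2 or 3 (0.062, 0.14 and 0.074). It was also lost without BAQ13 replicate 1 or 2 (0.0997 and 0.13). The call held without BAQ13 replicate 3 (0.027) and without BAQ12 replicate 3 (0.0056). With BAQ12O the mean was 954 ± 24.2 (SD, n = 3), a log2 fold change of 0.19 (95% confidence interval 0.05 to 0.33, adjusted p = 0.21 by limma). With Lys05 and BAQ12 the log2 fold changes were 0.10 and 0.06, with intervals that reached from -0.05 to 0.24 and from -0.08 to 0.20. PSAP was the most deeply counted member, at 671 to 1145 reads per library.

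ASAH1 (ENSG00000104763, chromosome 8, 18055992 to 18084998, minus strand, GRCh38) encodes acid ceramidase, which cuts ceramide to sphingosine and a fatty acid at the end of the chain. Normalised counts were 31.5, 34.6 and 28.5 with vehicle, 41.5, 30.2 and 26.1 with Lys05, 38.5, 33.2 and 26.4 with BAQ12, 56.9, 51.0 and 51.1 with BAQ13, and 38.8, 33.4 and 46.9 with BAQ12O. The 3 BAQ13 libraries lay above all other 12 libraries, which overlapped one another between groups. The mean rose from 31.5 ± 3.08 (SD, n = 3) with vehicle to 53.0 ± 3.37 (SD, n = 3) with BAQ13, a ratio of 1.68 and a log2 fold change of 0.73 (SE 0.20, limma adjusted p = 0.036). It rests on 31 to 38 reads per vehicle library and 56 to 61 reads per BAQ13 library. The call was lost when any vehicle or BAQ13 library was left out, while the log2 fold change stayed between 0.66 and 0.80. The limma adjusted p-values were 0.093, 0.071 and 0.14 without vehicle replicate 1, 2 and 3. They were 0.12, 0.090 and 0.075 without BAQ13 replicate 1, 2 and 3. Without BAQ12 replicate 3 the adjusted p was 0.0088, and without both libraries that stood apart it was 0.028. The log2 fold changes with Lys05 and BAQ12 were 0.03 and 0.04, with confidence intervals from -0.39 to 0.45 and from -0.38 to 0.46, and the value with BAQ12 was 0.18 without BAQ12 replicate 3. With BAQ12O it was 0.31 (-0.11 to 0.73, adjusted p = 0.55 by limma).

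**Figure D2:**
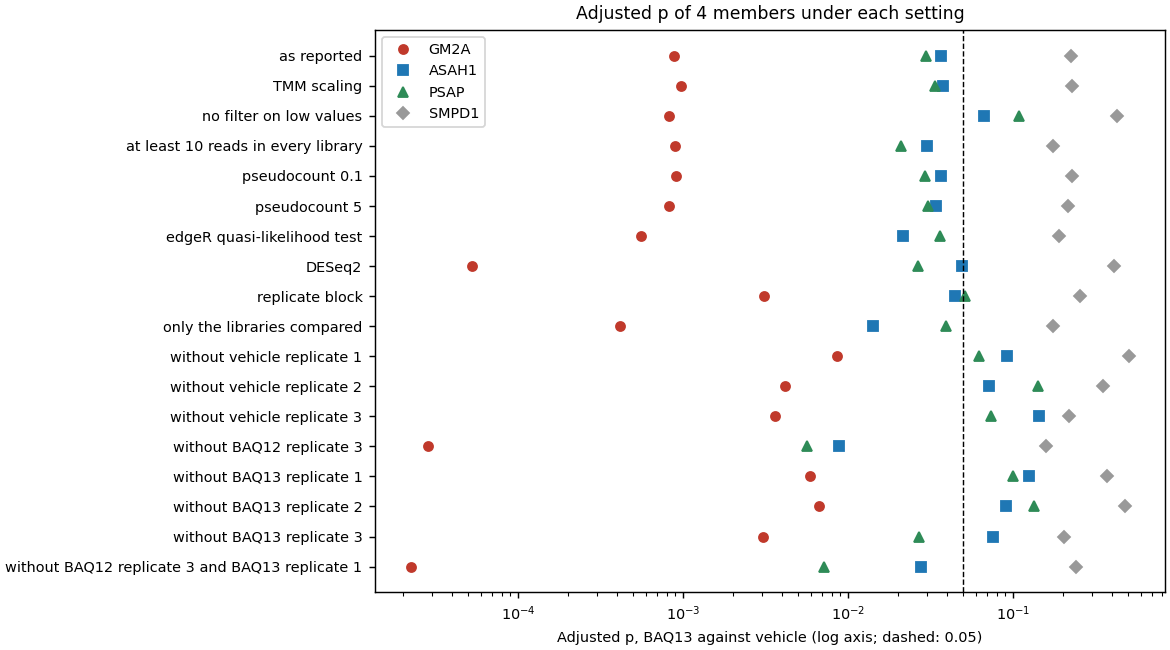
Adjusted p-values (log axis, limma unless named) of GM2A, ASAH1, PSAP and SMPD1 for BAQ13 against vehicle under each setting, with a dashed line at 0.05. GM2A lies left of the line in every setting, ASAH1 and PSAP cross it in several settings, and SMPD1 stays right of it throughout.

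HEXA (ENSG00000213614, chromosome 15, 72340919 to 72376476, minus strand, GRCh38) encodes the alpha subunit of beta-hexosaminidase, which removes the terminal sugar from GM2. Normalised counts were 23.2, 27.9 and 25.7 with vehicle, 27.7, 24.0 and 18.7 with Lys05, 22.0, 18.7 and 17.6 with BAQ12, 33.6, 41.0 and 26.8 with BAQ13, and 33.4, 39.1 and 27.6 with BAQ12O. The BAQ12 libraries lay below all libraries of vehicle, BAQ13 and BAQ12O. Against vehicle the log2 fold change was -0.38 with BAQ12 (95% confidence interval -0.83 to 0.07, adjusted p = 0.48 by limma), 0.37 with BAQ13 (-0.08 to 0.82, adjusted p = 0.37) and 0.36 with BAQ12O (-0.09 to 0.81, adjusted p = 0.51). None of these passed the threshold, and HEXA had 14 to 45 reads per library.

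SMPD1 (ENSG00000166311, chromosome 11, 6390431 to 6394998, plus strand, GRCh38) encodes acid sphingomyelinase, which turns sphingomyelin into ceramide. It had few counts, from 11 to 32 reads per library. Normalised counts were 12.5, 16.7 and 20.2 with vehicle, 11.7, 13.5 and 12.1 with Lys05, 18.3, 18.7 and 23.9 with BAQ12, 24.3, 29.2 and 21.0 with BAQ13, and 20.5, 14.3 and 27.6 with BAQ12O. Every BAQ13 library lay above every vehicle library, at a log2 fold change of 0.57 (95% confidence interval 0.03 to 1.12, adjusted p = 0.22 by limma). With Lys05 the log2 fold change was -0.35 (-0.89 to 0.19), and the Lys05 libraries overlapped those of vehicle and lay below all libraries of the other 3 agents. The SMPD1 window of 250 bases held 6 matches of GGGCGG, the most of the windows searched, and 0 of CCAAT, and it is shown for comparison with GM2A up to the first transcript start of GENCODE 29 (chr11:6390224-6390430, plus strand, GRCh38.p14), with the 5 matches of GGGCGG or its reverse complement in this stretch in capitals.
SMPD1: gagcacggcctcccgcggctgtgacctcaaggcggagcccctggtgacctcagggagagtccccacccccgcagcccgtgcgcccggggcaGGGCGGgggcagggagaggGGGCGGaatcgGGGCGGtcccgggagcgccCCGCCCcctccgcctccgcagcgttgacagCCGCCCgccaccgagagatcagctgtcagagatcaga

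The other 3 hydrolases showed no difference from vehicle past the threshold with any agent. GLA (ENSG00000102393, chromosome X, 101397803 to 101408012, minus strand, GRCh38), which encodes alpha-galactosidase A, the enzyme that degrades globotriaosylceramide, ranged from 27.1 to 46.9 over the 15 libraries. Its normalised counts were 33.2, 36.8 and 34.9 with vehicle and 38.8, 39.1 and 46.9 with BAQ12O, which did not overlap, at a log2 fold change of 0.24 (95% confidence interval -0.20 to 0.68, adjusted p = 0.68 by limma). The other 3 agents overlapped vehicle, with log2 fold changes of -0.06, -0.02 and 0.10 for Lys05, BAQ12 and BAQ13. GALC (ENSG00000054983, chromosome 14, 87837820 to 87993665, minus strand, GRCh38) encodes galactosylceramidase, which degrades galactosylceramide and psychosine. Its normalised counts were 23.2, 31.3 and 29.4 with vehicle, 33.0, 25.0 and 28.0 with Lys05, 24.8, 32.3 and 15.1 with BAQ12, 19.6, 33.7 and 28.5 with BAQ13, and 20.5, 19.1 and 23.4 with BAQ12O. The groups overlapped, apart from the BAQ12O libraries, which lay below all Lys05 libraries. GALC was the only member with a mean log2 level below vehicle with BAQ13 (-0.06, 95% confidence interval -0.61 to 0.49) and BAQ12O (-0.39, -0.94 to 0.16). Without BAQ13 replicate 1 its log2 fold change with BAQ13 was 0.15.

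ARSA (ENSG00000100299, chromosome 22, 50622754 to 50628173, minus strand, GRCh38) encodes arylsulfatase A, which removes the sulfate of sulfatide. Its normalised counts were 14.1, 13.4 and 25.7 with vehicle, 14.9, 17.7 and 21.5 with Lys05, 12.8, 11.9 and 60.3 with BAQ12, 23.3, 19.1 and 15.1 with BAQ13, and 25.9, 24.8 and 20.7 with BAQ12O. The value of 60.3 (48 reads) belongs to BAQ12 replicate 3, where GALC had its lowest value of 15.1 (12 reads). The log2 fold change of ARSA with BAQ12 was 0.30 (SE 0.44) with this library and -0.43 (SE 0.30) without it, and neither value passed the threshold. In this library, mitochondrially encoded genes took 20.6% of the reads, against 15.8% and 16.4% in its group mates. The share was also higher in the BAQ12O libraries (19.0% to 20.4%) than in the vehicle libraries (17.4% to 18.1%), and BAQ12O replicate 3, at 20.4%, had an ARSA value of 20.7. The part of this share in the results was not tested.

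**Figure D3:**
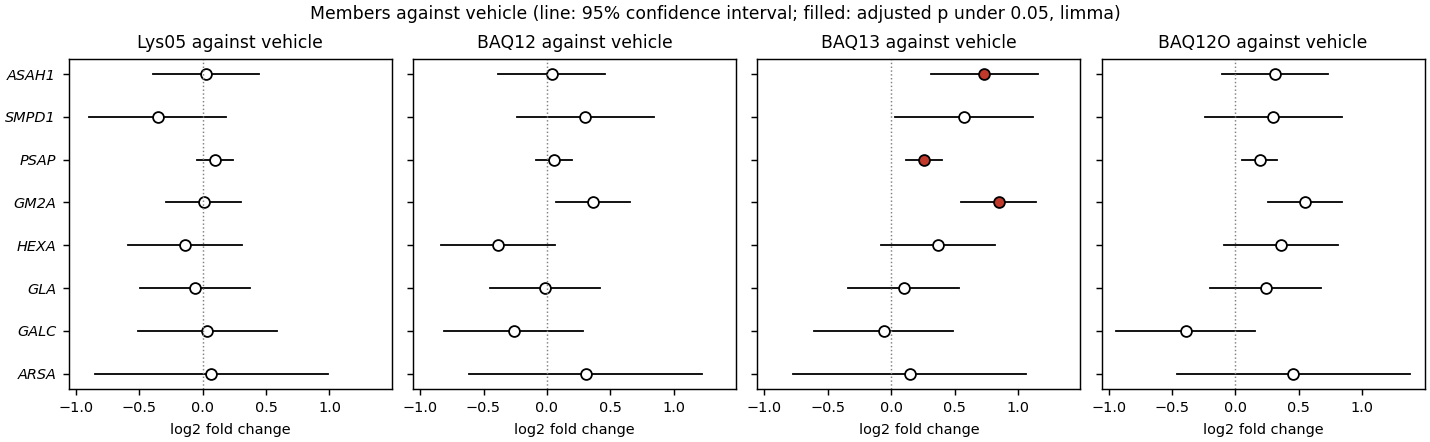
Log2 fold changes of the 8 members against vehicle (points) with 95% confidence intervals (lines) from the limma fit of 15 libraries, with 1 panel per agent. Filled points mark an adjusted p under 0.05, which only ASAH1, PSAP and GM2A with BAQ13 reached, and the intervals of ARSA are the widest.

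Set side by side, 7 of 8 members had a higher mean log2 level with BAQ13 than with vehicle, as they did with BAQ12O, against 5 of 8 with Lys05 and with BAQ12. The median log2 fold change over the 8 members was 0.31 with BAQ13 and 0.31 with BAQ12O, and 0.02 and 0.05 with Lys05 and BAQ12. Over all genes tested the median with BAQ13 was -0.0042. Of these 10495 genes, 5195 were higher with BAQ13, 5190 with BAQ12O, 5289 with Lys05 and 5223 with BAQ12, so that 5 of 8 lies near its share. Every library of the agent lay above every vehicle library for 4 members with BAQ13 (ASAH1, SMPD1, PSAP and GM2A), where 14.5% of all genes did so, and for 3 with BAQ12O (PSAP, GM2A and GLA), where 12.5% did so. With Lys05 and BAQ12 this held for 1 member each (PSAP and GM2A, respectively), against 8.24% and 7.75% of all genes. A count of 1 in 8 lies close to those shares. In the other direction, every BAQ12 library lay below every vehicle library for HEXA, and the share of all genes for this was not computed.

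The agents were next compared with each other at the same dose and time, in 6 pairs. BAQ13 against Lys05 was the pair with a called member. GM2A was 1.80 times as high with BAQ13 (log2 fold change 0.84, SE 0.14, limma adjusted p = 0.0018), and it was called under every alternative run for this pair. For SMPD1, with normalised counts of 11.7 to 13.5 with Lys05 and 21.0 to 29.2 with BAQ13, the log2 fold change was 0.93 (SE 0.26, limma adjusted p = 0.066). ASAH1 stood at 0.71 (SE 0.20, limma adjusted p = 0.072). HEXA (0.51, 95% confidence interval 0.06 to 0.96) and PSAP (0.16, 0.02 to 0.30) were also higher with BAQ13. Neither passed (limma adjusted p = 0.28 and 0.27). The intervals of GLA, ARSA and GALC spanned 0, with GALC lower with BAQ13 (-0.09). Without BAQ12 replicate 3, the adjusted p was 0.027 for SMPD1 and 0.019 for ASAH1, so that 3 members passed in place of 1. Without both libraries that stood apart it was 0.055 for SMPD1 and 0.058 for ASAH1, and GM2A was again the member that passed. The share of all genes that passed in this pair was 2.66% (279 of 10495). Without BAQ12 replicate 3 it was 814 genes that passed, and without both libraries 631, so that calls rose over all genes too.

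BAQ13 and BAQ12 did not differ at the adjusted threshold for any member with limma, edgeR or DESeq2, although 4 of 8 members had an unadjusted p-value under 0.05 with limma, all higher with BAQ13, where 8.27% of all genes had one in either direction. These were HEXA at a log2 difference of 0.75 (95% confidence interval 0.30 to 1.20, adjusted p = 0.18 by limma), ASAH1 at 0.70 (0.28 to 1.12, 0.19), GM2A at 0.48 (0.19 to 0.78, 0.19) and PSAP at 0.20 (0.06 to 0.34, 0.35). All of these intervals lie above 0, and a missed threshold does not show that the agents act alike on these genes. In this pair 0.562% of all genes passed. Without BAQ12 replicate 3 the differences were 0.69, 0.55, 0.40 and 0.17, with 0 members called.

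The remaining 4 pairs held 0 called members with limma, edgeR and DESeq2. For BAQ12 against Lys05, 2 members had an unadjusted p-value under 0.05, namely SMPD1 (0.65, 95% confidence interval 0.11 to 1.20) and GM2A (0.36, 0.06 to 0.65), against 7.17% of all genes, and 0.162% of all genes passed the adjusted threshold. The SMPD1 difference was 0.54 without BAQ12 replicate 3. For BAQ12O against Lys05 there were 3, GM2A (0.54, 0.25 to 0.84, adjusted p = 0.20 by limma), SMPD1 (0.65, 0.11 to 1.19) and HEXA (0.50, 0.05 to 0.95), against 7.36% of all genes, and 0.248% passed. GM2A passed in this pair without BAQ12 replicate 3 (adjusted p = 0.041 by limma). For BAQ12O against BAQ12 there was 1, HEXA (0.74, 0.29 to 1.19, adjusted p = 0.30 by limma), against 8.38% of all genes, and 0.229% passed. For BAQ12O against BAQ13 there were 2, ASAH1 (-0.42, -0.84 to -0.00059) and GM2A (-0.30, -0.59 to -0.0050), both lower with BAQ12O, against 11.2% of all genes, and 1.39% passed.

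**Figure D4:**
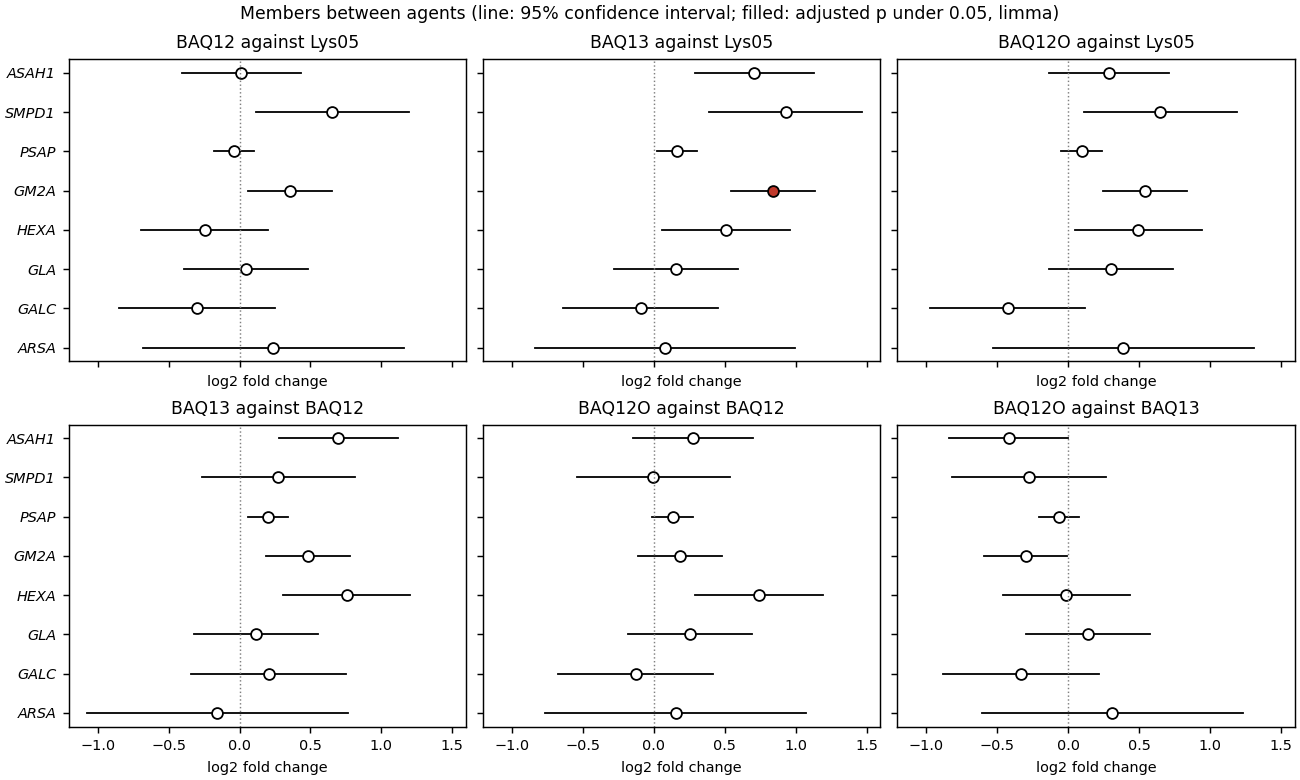
Log2 differences of the 8 members between agents (points) with 95% confidence intervals (lines), with 1 panel for each of the 6 pairs. The filled point, GM2A in BAQ13 against Lys05 at 0.84, is the member with an adjusted p under 0.05 (limma), and most other intervals span 0.

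The other genes of the pathway were taken from lists compiled by function. Of 12 further genes of lysosomal sphingolipid breakdown, 11 were tested, of which 8 were higher and 3 lower with BAQ13 than with vehicle (median log2 fold change 0.14), and 2 passed the threshold, both higher. NEU1, the lysosomal sialidase that removes sialic acid from gangliosides, rose from 30.02 ± 7.17 to 94.4 ± 5.82 (SD, n = 3 each, adjusted p = 2.1e-05 by limma). CTSA, the protective protein that holds NEU1 and beta-galactosidase in a complex, rose from 186 ± 30.3 to 319 ± 46.9 (SD, n = 3 each, adjusted p = 0.011 by limma). NEU1 also passed with BAQ12, at 58.3 ± 13.1 (SD, n = 3, log2 fold change 0.94, adjusted p = 0.019 by limma), a comparison in which no member did. Without BAQ12 replicate 3 the log2 fold change of NEU1 with BAQ12 was 1.09 (adjusted p = 0.0012 by limma). Without BAQ13 replicate 1, NEU1 passed with BAQ13 (1.70, adjusted p = 0.00011 by limma) and CTSA did not (0.67, adjusted p = 0.061 by limma). With both of these libraries left out, CTSA passed with BAQ13 (adjusted p = 4.7e-06 by limma) and, at 0.64, with BAQ12O (adjusted p = 2.9e-06 by limma). NEU1 then passed with BAQ12O too (0.67, adjusted p = 0.0076 by limma). Calls over all genes rose as well, from 606 to 1256 with BAQ13 and from 155 to 974 with BAQ12O. With all libraries, NEU1 was higher with BAQ13 than with Lys05 (1.17, adjusted p = 0.0015 by limma), where CTSA did not pass (0.53). It was lower with BAQ12O than with BAQ13 (-0.98, adjusted p = 0.011 by limma). GLB1, which encodes that beta-galactosidase, had a log2 fold change of 0.05 with BAQ13 and did not pass.

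On the side of synthesis, 21 of 29 listed genes were tested. With BAQ13, 8 were higher and 13 lower (median log2 fold change -0.08), and 1 of 21 passed, close to the 5.77% of all genes. This was COL4A3BP, which encodes the transfer protein CERT that carries ceramide from the endoplasmic reticulum to the Golgi, at 173 ± 6.67 against 118 ± 8.08 (SD, n = 3 each, log2 fold change 0.55, SE 0.11, limma adjusted p = 0.0063). It also passed against Lys05, at a log2 fold change of 0.51 (limma adjusted p = 0.017). Without BAQ13 replicate 1 it passed both against vehicle (0.58, adjusted p = 0.015 by limma) and against Lys05 (0.54, adjusted p = 0.041 by limma). Of 14 listed genes of non-lysosomal breakdown and sphingosine 1-phosphate, 6 were tested, 1 higher and 5 lower with BAQ13 (median -0.38), and 0 passed with limma.

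**Figure D5:**
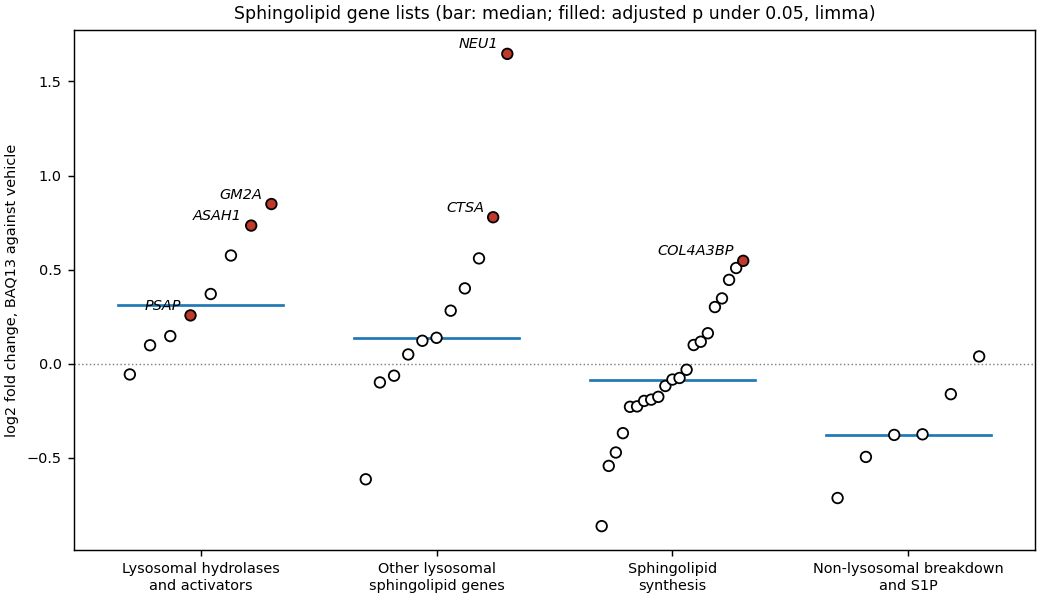
Log2 fold change of each tested gene with BAQ13 against vehicle, in 4 lists of sphingolipid genes ordered by value within a list. The bars are list medians of 0.31, 0.14, -0.08 and -0.38, and the filled points are genes with an adjusted p under 0.05 (limma).

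Correlations across the 15 libraries are given first for the 3 members that passed with BAQ13. Pearson's r of log2(normalised count + 1) was 0.76 between ASAH1 and GM2A, 0.74 between PSAP and GM2A and 0.74 between ASAH1 and PSAP. As the 3 passed through high BAQ13 libraries, positive values of r among them follow from that choice. Pairs with a member that did not pass reached 0.66 (PSAP and HEXA), 0.63 (ASAH1 and HEXA) and 0.63 (SMPD1 and GM2A). Other pairs were lower, such as GM2A and ARSA at 0.04. These are descriptions over libraries that share groups and normalisation. Among all genes tested, those most alike to GM2A were CLCN5 (r = 0.94), NDRG4 (0.91) and AP5Z1 (0.90), and CLCN5 stood at 35.4 ± 6.13 with vehicle and 55.5 ± 4.59 with BAQ13 (SD, n = 3 each). Those most alike to PSAP were CENPI (0.92), DIP2C (0.92) and GDF15 (0.91). For ASAH1 they were COL4A3BP (0.88), which is also in the synthesis list, RASSF8 (0.87) and LRRC75A-AS1 (0.86). As the 3 members passed through high BAQ13 libraries, genes that are high with BAQ13 rank near them by that choice. RASSF8, for example, stood at 736 ± 35.0 with vehicle and 915 ± 1.66 with BAQ13 (SD, n = 3 each). Whether such genes share a role was not tested. ARSA and GALC went opposite ways (r = -0.73), with r = -0.52 without BAQ12 replicate 3 and -0.46 without both libraries that stood apart.

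Genes that overlap members could share reads with them if counting ignored the strand, which the sources used here do not settle. CCDC69, on the opposite strand of GM2A, had normalised counts of 3.12 to 19.6 per library, against 64.6 to 139 for GM2A. Its lowest value (3 reads) was in Lys05 replicate 2 and its highest (21 reads) in BAQ13 replicate 1. GM2A also had its lowest and highest values in these libraries. Whether reads were shared was not tested. HEXA-AS1 had 0 to 2.80, and the other annotated genes that overlap a member had at most 1 read in any library.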

How the data were processed

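Total RNA of treated MIA PaCa-2 cells was sequenced in 15 libraries. The authors deposited normalised signal values, in which each read count had been divided by its library's size factor. All non-zero values were whole multiples of 1 step (100% in each library, tolerance 0.01 reads), so reads were recovered and size factors recomputed, with a ratio of 1.0 to the deposited ones. Spike-in rows (92) held 0 reads. The submitters' processing notes name STAR, HTSeq, DESeq2 and GRCh38 (hg38), without roles. The kit is a 3′ mRNA kit in the labels but a stranded, paired-end one in the methods. The files do not settle which, so levels were not compared between genes. Depth was 1586566 to 2500551 reads on genes, with counting error only behind the floor of 3 reads.

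The members and lists were chosen with earlier results of these data known. The design had assumed counts. As values were normalised, limma 3.58.1 (R 4.3.3) on log2(value + 1), moderated with a trended prior variance from all 15 libraries, was the main test and the count tests became alternatives. A fold change on this scale understates changes of weakly counted genes. The filter was edgeR's filterByExpr by group with a count of 10 and a total of 15 as minima, and 10495 genes passed. P-values were two-sided and adjusted by Benjamini-Hochberg over genes within each of 10 comparisons. All members were named, list genes only where an adjusted p passed against vehicle (GLB1 was named after its value was seen), and the 3 most correlated genes for each called member. Coordinates came from GENCODE 29, which holds 56531 of the 60107 identifiers, and promoter windows from RefSeq (GRCh38.p14).

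Alternatives were edgeR 4.0.16 quasi-likelihood and DESeq2 1.42.0 on the recovered reads, TMM factors, no filter, at least 10 reads in every library, pseudocounts of 0.1 and 5, the replicate number as a block, a fit of only the libraries compared, adjustment over all 10 comparisons and leaving out each library. Leaving out BAQ12 replicate 3 together with BAQ13 replicate 1, and refits without single libraries for the F test, for list genes and for libraries outside a comparison, were added after seeing the data. The code was tested on simulated data.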

Additional observations from a re-analysis of the deposited data

How the results depend on the processing

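GM2A with BAQ13 against vehicle passed under every alternative run. The number of members that passed in that comparison was 3 (606 genes). It was 1 without the filter on low values (470 genes) and 1 with adjustment over all 10 comparisons (356 genes). It was 2 with a replicate block (512 genes) and 1 to 3 when a library was left out. Of these fits, 320 genes passed without vehicle replicate 3 and 1441 without BAQ12 replicate 3. For BAQ13 against Lys05 the number of members was 1 (279 genes) and 2 with at least 10 reads in every library (290 genes). It was 1 to 3 when a library was left out (814 genes without BAQ12 replicate 3). For BAQ12O against vehicle it was 0 (155 genes), 2 with only the libraries compared (871 genes) and 0 to 2 when libraries were left out. GM2A and PSAP passed there without BAQ12 replicate 3 and BAQ13 replicate 1 (adjusted p = 0.0025 and 0.029 by limma), where 974 genes passed. For BAQ12O against Lys05 the number of members was 0 (26 genes) and 1 with only the libraries compared (223 genes). It was 0 to 1 when libraries were left out (261 genes without the same 2 libraries). In the F test over the 5 groups it was 1, and 3 without BAQ12 replicate 3 and 2 without both. In the remaining 6 comparisons the count was 0 under every alternative. Apart from PSAP with BAQ13, the block changed no call of a member in the 10 comparisons. Deviations of same-numbered libraries correlated at -0.49 to 0.20, and in 0 comparisons was every pair above 0.1. The lowest values, -0.488 and -0.492, came from BAQ13 against BAQ12 at replicates 1 and 3, pairs that hold the libraries that stood apart. These values gave no sign of pairing by replicate number, but with 3 libraries per group they cannot exclude it.

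Log2 fold changes that turned direction belonged to members that did not pass in the same comparison. When libraries were left out they spanned, with Lys05, -0.16 to 0.17 for ASAH1, -0.066 to 0.10 for GM2A, -0.26 to 0.011 for HEXA, -0.20 to 0.088 for GLA, -0.086 to 0.13 for GALC and -0.093 to 0.35 for ARSA. With BAQ12 they spanned -0.085 to 0.18 for ASAH1, -0.20 to 0.13 for GLA, -0.50 to 0.027 for GALC and -0.43 to 0.70 for ARSA. With BAQ13 they spanned -0.011 to 0.26 for GLA, -0.22 to 0.15 for GALC and -0.014 to 0.43 for ARSA. GLA with BAQ12 was also above 0 with edgeR (0.021) and DESeq2 (0.016). Where the cause of a change is not in the setting itself, it was not tested. SMPD1 and ARSA rest on 11 to 48 reads per library, HEXA on 14 to 45 and GALC on 12 to 38. The SE of ARSA against vehicle with BAQ13 was 0.44, and 0.27 without BAQ12 replicate 3.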
